A study of Rattus norvegicus with 21 samples.

Results

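Rat spinal cord cultures of 4 hr treated with CKIN were compared with PBS-treated 4 hr cultures, the vehicle control that the labels name Injured 4 hr. Both groups were hybridised on 2-colour arrays beside a pool of PBS culture RNA. The comparison uses 6 of the 21 arrays of the series, 3 per group, chosen by their titles. The CKIN arrays were titled CKINs, and the Injured 4 hr arrays carried cultures that had not been pooled. By the labels both groups share the culture, its duration and a pooled PBS reference, and differ in CKIN. The titles word the reference differently (PBS 4hr for CKIN, PBS 4hrpooled for Injured 4 hr), so that it was the same pool is not certain. The letters CKIN are not spelled out in the labels and no dose is given. From knowledge of the field, and not from the labels, they probably stand for inhibitors of cytokines. Strain, sex and age of the rats, and whether the replicates were separate animals, are not given. For side views, the text also uses the 3 arrays of freshly dissected cord (Uninjured), the 3 of cultures with MP and the 3 with acetaminophen (Acet). MP is likewise only letters, probably methylprednisolone, a glucocorticoid. All of these were set against PBS-treated culture RNA. The series also holds 3 arrays of 4 hr cultures with indomethacin (titled vs ETOH) and 3 with NS398 (titled vs DMSO). They entered the statistical fit and the scalings that use all 21 arrays, and their values are not described. The series title names anti-inflammatory compounds in spinal cord injury, so the comparison asks how CKIN shifts the RNA of cultured cord.

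Interleukin 1 and tumour necrosis factor are cytokines that microglia and other cells release soon after tissue is cut. Their receptors act through adaptor proteins on NF-kB, a transcription factor that the inhibitor Nfkbia holds in the cytoplasm until signalling destroys it. Freed NF-kB switches on chemokines such as Cxcl1 and Cxcl2, which attract neutrophils, and also Nfkbia itself, which closes a negative loop. Il1r2 is a decoy receptor that binds interleukin 1 without signalling.

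Promoter sequences of Cxcl1, Cxcl2 and Nfkbia are shown because these 3 genes were lower on the CKIN than on the Injured 4 hr arrays (values further on) and carry the NF-kB motif searched for. Each is the 250 bases before the gene start from RefSeq, assembly GRCr8, written in the direction of the gene. Capitals mark matches on either strand to the NF-kB motif searched, GGG, then any 2 bases, then TTTCC. Cxcl1 lies on the minus strand (chr14:17479322-17479571), as do Cxcl2 (chr14:17467256-17467505) and Nfkbia (chr6:78597073-78597322).
Cxcl1: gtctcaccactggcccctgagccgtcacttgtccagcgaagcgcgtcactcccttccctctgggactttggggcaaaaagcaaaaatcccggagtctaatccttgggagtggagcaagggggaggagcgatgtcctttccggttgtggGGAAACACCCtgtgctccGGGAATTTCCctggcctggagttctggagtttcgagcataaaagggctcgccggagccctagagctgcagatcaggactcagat
Cxcl2: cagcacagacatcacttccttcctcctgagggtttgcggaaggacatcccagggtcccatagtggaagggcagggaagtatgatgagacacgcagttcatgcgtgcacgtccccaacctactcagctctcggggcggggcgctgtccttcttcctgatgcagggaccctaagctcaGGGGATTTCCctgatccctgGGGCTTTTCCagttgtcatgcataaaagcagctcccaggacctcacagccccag
Nfkbia: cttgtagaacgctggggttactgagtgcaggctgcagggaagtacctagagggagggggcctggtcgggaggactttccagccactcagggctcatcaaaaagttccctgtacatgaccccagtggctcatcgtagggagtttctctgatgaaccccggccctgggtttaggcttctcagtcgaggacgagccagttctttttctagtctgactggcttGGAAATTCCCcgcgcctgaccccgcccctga
Cxcl1 held 2 matches, starting 102 and 84 bases before the gene start, Cxcl2 held 2, at 74 and 54 bases, and Nfkbia 1, at 31 bases. Of 33469 rat promoter windows of this length, 435 (1.3%) held the motif. Among the 2596 tested genes with a window, 48 (1.85%) held it. In those 48 genes 7 fell and 2 rose, with a median difference of -0.16, beside 468 and 36 of the 2548 genes without it and a median of -0.38. Under common centring 4 of the 48 and 127 of the 2548 fell, under the fresh-cord curve (both scalings are defined further on) 3 and 94, and under the culture curve 0 and 15, so which set had the larger share of falls depended on the scaling. Of other genes described below, B2m held 1 match, and Il1b, Cebpb, Junb, Hspa1a, Nfkb1 and Timp1 held 0. A match is a description of the letters and not a binding site.

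The values are deposited log2 ratios, read as sample over PBS reference from the order of the titles, which is likely but not stated. On each array the probe median was subtracted, so a difference below 0 means lower in CKIN relative to that median. The CKIN arrays measured 3850, 4050 and 3092 of the 5376 spots, against 4882 to 4915 on the Injured 4 hr arrays. Blank CKIN spots were not spread evenly. Probes with no CKIN value had a median centred ratio of -0.30 on the Injured 4 hr arrays, and those with 3 values had 0.38. Across probes, centred ratios correlated at 0.84 to 0.85 among the Injured 4 hr arrays and at 0.40 to 0.53 among the CKIN arrays. Values equal, at 4 decimals, to the log2 of a ratio of integers from 1 to 12 made up 6.94% to 8.15% of values on CKIN arrays and 0.57% to 0.74% on Injured 4 hr arrays. These features divide the arrays exactly as the treatment does, and the groups and the making of the arrays cannot be told apart. On the MP and Acet arrays the share of such integer ratios was 4.84% to 6.01%, nearer to CKIN than to Injured 4 hr. Where MP or Acet values resemble those of CKIN below, a shared response and the making of the arrays cannot be told apart. Marker genes of myelin (17 of 17 on the array tested), astrocytes (26 of 26) and neurons (49 of 52) were measured, but ratios to a pool of the same tissue give no absolute level. Throughout, fewer cells of a type and less RNA per cell cannot be told apart.

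The main pattern in centred ratios was a lower reading in CKIN than in Injured 4 hr at probes that stood high in fresh cord. In limma, 748 of 3736 tested probes passed an adjusted p of 0.05 (20%), 55 higher (1.47%) and 693 lower (18.5%) in the CKIN cultures. If the deposited ratios ran the other way, these would be 693 higher and 55 lower, and every direction below would turn. Probes were sorted into 5 equal bins by their mean ratio on the 3 Uninjured arrays. The 747 probes of the lowest bin had a median difference of 0.10, and the 747 of the highest bin -1.19. In the highest bin the median centred ratio was 0.30 in CKIN and 1.5 in Injured 4 hr. CKIN there was thus not below its own reference on the centred scale. With the CKIN arrays set against the PBS pool in place of the Injured 4 hr arrays, 290 of the 748 probes had the opposite sign. Of the highest bin 358 (47.9%) fell and 0 rose, and of the lowest bin 53 (7.1%) fell and 22 rose. The groups did not overlap at 1808 probes (48.4%), 1438 of them lower (38.5%) and 370 higher (9.9%) in CKIN. Without Injured 4 hr replicates 1, 2 and 3 the count was 272, 237 and 205, and without CKIN replicate 3 it was 323.

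**Figure D1:**
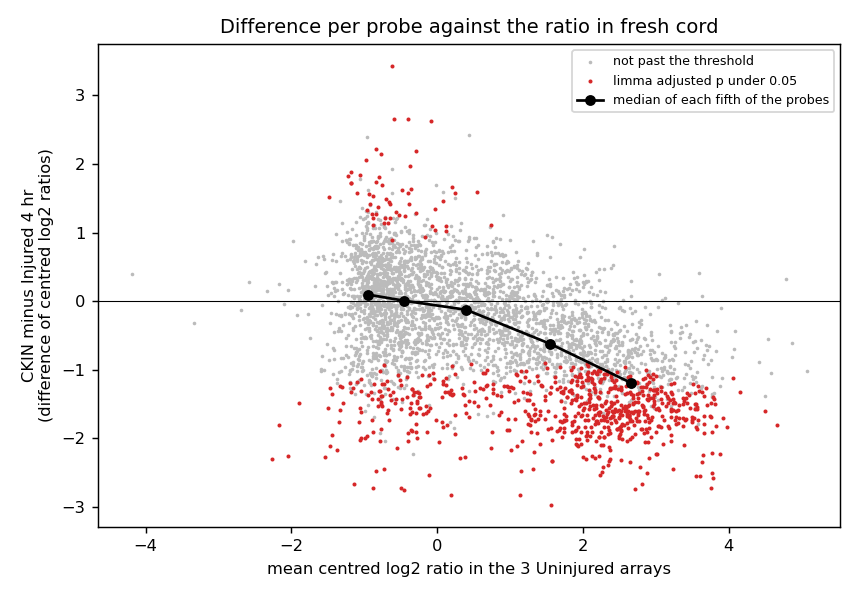
Each point is 1 tested probe, placed by its mean centred log2 ratio on the 3 Uninjured arrays (horizontal axis) and by the CKIN minus Injured 4 hr difference of centred log2 ratios (vertical axis). Red points passed limma at an adjusted p of 0.05, and black dots are the medians of the 5 bins, from 0.10 on the left to -1.19 on the right.

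Because of this slope, each result was recomputed under 3 other scalings. Centring on the 1624 probes measured on all 21 arrays, called common centring here, moved the median of all tested probes from -0.38 to 0.19. With it 415 probes passed (11.1%), 216 higher (5.78%) and 199 lower (5.33%), of which 254 were shared with the first set in the same direction. Subtracting from each array a loess curve on the mean Uninjured ratio, called the fresh-cord curve, left 190 probes (5.09%), 38 higher (1.02%) and 152 lower (4.07%), with 173 shared. A loess curve on the mean Injured 4 hr ratio with centring by source plate, called the culture curve, left 28 (0.749%), 11 higher (0.294%) and 17 lower (0.455%), with 22 shared. The culture curve is drawn from the control arrays of this comparison, so it removes their shared pattern by construction. After it the Injured 4 hr arrays correlated at -0.515 to -0.479 with each other. A call kept or lost under it is a description and not an independent check. Deposited ratios, with no centring, gave 2232 probes (59.7%), 99.96% of them higher. There the differences of Cxcl2, Junb, Nfkb1, Nfkbia, Timm9, Mif and 2 of 3 Mt1 probes, which fell in centred ratios, turned to positive values (0.0073 to 0.34), none of which passed. Directions below are therefore relative to the centre of each array. With array set as a block, which separates arrays with more than 1100 missing spots from the rest, 6 probes passed (0.163%). All CKIN arrays are above that limit and no Injured 4 hr array is. The block is thus estimated only from MP, Acet and NS398, which have arrays of both kinds. It cannot separate array set from CKIN within this comparison, so a call kept with it is a description.

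Of the 748 probes, 16 passed in centred ratios, under common centring and under both curves, 4 higher and 12 lower, and 15 of them had a gene name.

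Hivep2 encodes a zinc finger protein that binds kB-like DNA motifs, the same kind of motif that NF-kB binds. Hivep2 read -2.48, -3.06 and -2.32 on the CKIN arrays and -0.23, -0.04 and -0.76 on the Injured 4 hr arrays. All CKIN arrays lay below all controls, with no overlap. It fell by 2.27 ± 0.35 (SE, n = 3 per group; limma adjusted p = 0.00115). It also passed under common centring (-1.69, adjusted p = 0.0188), the fresh-cord curve (-2.16, adjusted p = 0.0048), the culture curve (-2.32, adjusted p = 0.000196) and with array set as a block (-2.56, adjusted p = 0.0224), and not in deposited ratios (-0.35, adjusted p = 0.622). Group means in MP and Acet cultures were -1.75 and -1.70, both also below the Injured 4 hr mean of -0.35.

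Or1e31, an olfactory receptor gene, was the other named probe whose call held with array set as a block. Or1e31 read -2.67 and -4.26 on the 2 CKIN arrays that measured it and -0.61, -0.90 and -0.71 on the Injured 4 hr arrays. The groups did not overlap, and the difference was -2.72 ± 0.50 (limma adjusted p = 0.00315; block -3.24, adjusted p = 0.0316). Means in MP and Acet were -1.29 (2 arrays) and -2.56, both also below the Injured 4 hr mean of -0.74. Olfactory receptors form a large family of like sequences, so a probe may bind RNA of several members.

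Gpm6b, a membrane glycoprotein of neurons and glia, read -0.39, -0.78 and -1.28 in CKIN and 1.86, 1.87 and 2.04 in Injured 4 hr. Every control array was high and every CKIN array low, a fall of 2.74 ± 0.51 (limma adjusted p = 0.00315). Ppp2r2b, a regulatory subunit of protein phosphatase 2A enriched in neurons, read -1.63, -1.10 and -1.51 against 1.27, 0.73 and 1.03, a fall of 2.42 ± 0.41 (limma adjusted p = 0.00218). Cntn6, a neuronal adhesion molecule, fell by 2.05 ± 0.46 (adjusted p = 0.0068). Gda, the guanine deaminase that is abundant in brain, read -1.99, -2.10 and -2.03 in CKIN and 0.19, -0.12 and -0.23 in Injured 4 hr. The CKIN arrays lay close together, far below the controls, and Gda fell by 1.99 ± 0.40 (limma adjusted p = 0.00446). Means in MP and Acet were 0.68 and 1.345 for Gpm6b and -0.35 and -0.25 for Ppp2r2b. They were -2.04 and -2.05 for Cntn6 and -1.86 and -1.16 for Gda. All lay below the Injured 4 hr means of 1.93, 1.01, -0.48 and -0.05, so lower values were shared with both other treatments. Whether this came from the treatments or from the making of the arrays was not tested.

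The other falls that held spanned unlike functions. Clcn5, an endosomal chloride transporter, read -2.14 and -2.72 on 2 CKIN arrays and -0.17, 0.32 and -0.01 on the Injured 4 hr arrays. No Injured array came near the CKIN values, and the difference was -2.48 ± 0.43 (limma adjusted p = 0.00336). Hrh1, the histamine H1 receptor, read -4.80 and -1.96 against -1.28, -0.34 and -0.37. The size of its difference, -2.72 ± 0.54, rests on 2 CKIN arrays that lay far apart. Cpb1, a carboxypeptidase, fell by 2.11 ± 0.40, Csn1s1, a milk casein, by 2.03 ± 0.35, and Timm9, a chaperone of mitochondrial protein import, by 1.85 ± 0.36. Rps4x-ps9, a ribosomal protein pseudogene whose probe may bind RNA of its parent gene, fell by 2.97 ± 0.45 (limma adjusted p = 0.00115). MP and Acet means also lay below the Injured 4 hr mean for Hrh1, Cpb1, Csn1s1, Timm9 and Rps4x-ps9. For Cpb1 they were -2.12 and -2.53 (CKIN -2.87, Injured 4 hr -0.76). For Rps4x-ps9 they were -1.42 and -0.91 (CKIN -1.655, Injured 4 hr 1.31). The Clcn5 mean was 0.09 in MP and -0.92 in Acet, beside 0.04 in Injured 4 hr.

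Rises that held under all 4 scalings were fewer. Barhl1, a homeobox factor of neural development, read 3.69, 2.36 and 3.09 in CKIN and -0.04, -0.61 and -0.51 in Injured 4 hr. All 3 CKIN arrays were high, and it rose by 3.43 ± 0.65 (limma adjusted p = 0.00315). Its mean was 3.84 in MP and 2.80 in Acet, so the high ratio was shared with both other treatments, and the making of the arrays cannot be told apart from them. Pcyt1a, the regulated enzyme of phosphatidylcholine synthesis, read 1.34 and 2.20 on 2 CKIN arrays and 0.25, 0.11 and -0.52 on the controls, a rise of 1.82 ± 0.40 (limma adjusted p = 0.00773). It was not high elsewhere, with means of -0.58 in MP (1 array) and -0.85 in Acet. Six3, a homeobox factor of the forebrain and eye, read 0.35 and 2.12 against -0.59, -0.37 and -0.54. It rose by 1.73 ± 0.45 (limma adjusted p = 0.0164), a call that ended without Injured 4 hr replicate 1 (1.68) or 3 (1.71). For the genes with 2 CKIN values, leaving out either array left too few values to test. The other 14 named probes kept their call with any 1 array left out wherever enough values remained.

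**Figure D2:**
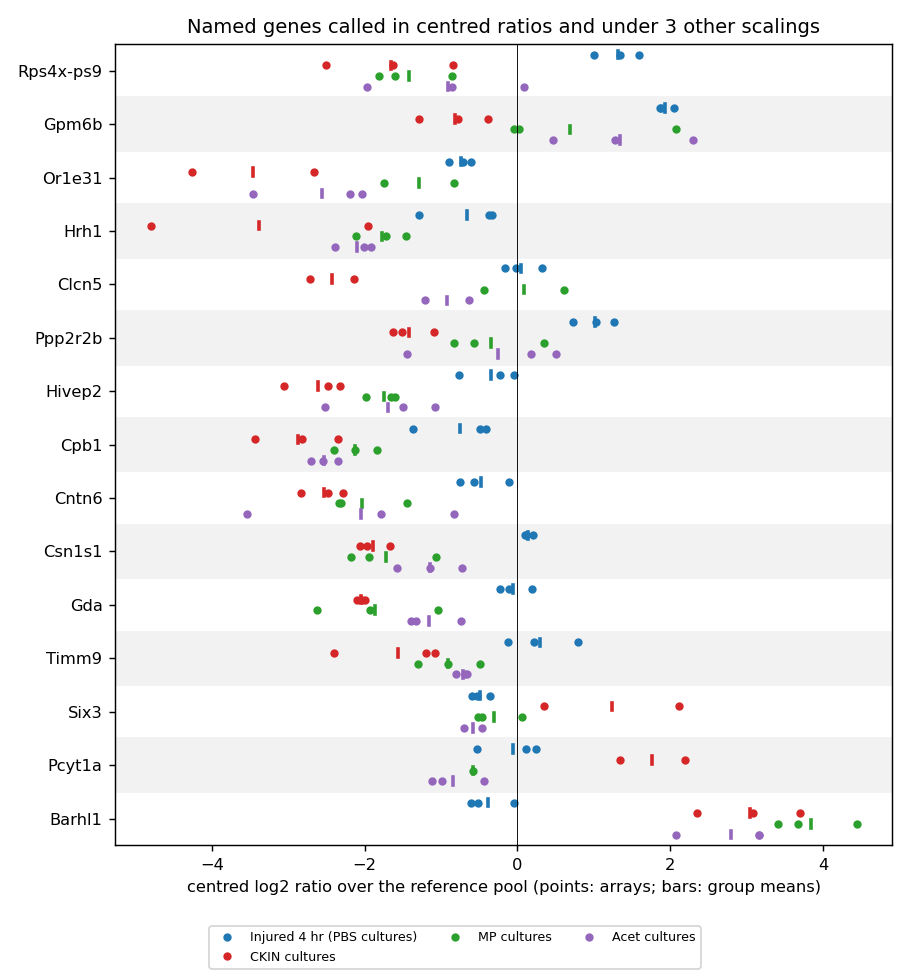
Centred log2 ratio over the reference (horizontal axis) of the 15 named genes that passed limma in centred ratios and under the 3 other scalings, 1 row per gene. Points are single arrays, 3 or fewer per group where spots were missing, and bars are group means. The CKIN points lie apart from the Injured 4 hr points in every row, and Barhl1 is also high in MP and Acet.

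Cytokine and receptor genes as a list stood close to all genes in centred ratios. Of 15 tested genes for interleukin 1 and tumour necrosis factor ligands, receptors and adaptors, 3 fell (20%) and 0 rose (median -0.43), beside 577 (18.0%) and 46 of all 3202 tested genes (median -0.36). The counts were 1 and 0 under common centring, where the median turned to 0.15, 3 and 0 under the fresh-cord curve, and 0 and 0 under the culture curve. Of all tested genes 5.0% fell under common centring, 3.94% under the fresh-cord curve and 0.531% under the culture curve. These shares, and 18.0% in centred ratios, stand beside every list count here and below. The ligand Il1b was read by 2 probes that gave unlike values. One Il1b probe read -1.44, -1.77 and -0.41 in CKIN and 1.29, 0.43 and 1.18 in Injured 4 hr, without overlap, and fell by 2.17 ± 0.47 (limma adjusted p = 0.0067). The other read -1.09 and -0.10 against -0.05, -0.52 and 0.03, which overlap (-0.42 ± 0.43, adjusted p = 0.53).

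Tnf, the other main ligand, read -1.17 and -1.39 on 2 CKIN arrays and 0.02, 0.37 and 0.30 on the Injured 4 hr arrays. The groups did not overlap, but the difference of -1.51 ± 0.60 missed the threshold (limma adjusted p = 0.0758). Il1a, at -0.71 ± 0.38, did not pass (limma adjusted p = 0.194). Its CKIN values of -0.05 and -0.95 lay below the Injured values of 0.50, 0.02 and 0.10.

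The decoy receptor Il1r2 read -1.02 and -2.02 against 0.04, 0.65 and 0.45 and fell by 1.90 ± 0.43 (limma adjusted p = 0.00709). Both CKIN arrays were below all controls, and the call ended under common centring (-1.39, adjusted p = 0.0672) and under the culture curve (-1.13, adjusted p = 0.204). The tumour necrosis factor receptors did not pass. Tnfrsf1a, the widely expressed receptor, differed by 0.34 ± 0.44, and Tnfrsf1b, its partner of immune cells, by -1.18 ± 0.47 (limma adjusted p = 0.0758) on 1 probe and -0.49 ± 0.39 on the other. Cd40, a receptor of the same family on antigen-presenting cells, read -5.20, -0.58 and -1.25 against -0.10, 0.32 and 0.09. CKIN replicate 1 set the size of its fall of 2.45 ± 0.71 (limma adjusted p = 0.0238). Without that array it was -1.02 and did not pass, nor did it without each Injured 4 hr array (-2.55, -2.34 and -2.45). Il1rl1, the receptor of interleukin 33, passed upward on 1 probe at 2.63 ± 0.81 (adjusted p = 0.0328) with CKIN values of 0.18 and 4.87, and the call ended without any 1 Injured array (2.59, 2.65 and 2.67). Its second probe gave -0.43 and did not pass (limma adjusted p = 0.503). Il1r1, the signalling receptor, had too few CKIN values to test.

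The chemokines Cxcl1, Ccl4 and Cxcl2, which stood high on the Injured 4 hr arrays and low in fresh cord, were lower with CKIN than on the Injured 4 hr arrays. With the CKIN arrays set against the PBS pool instead, none of the 3 passed (-0.94, -0.82 and -0.23, limma adjusted p = 0.196, 0.251 and 0.759). Cxcl1 read -0.87 and -0.999 on 2 CKIN arrays and 1.44, 1.81 and 0.73 on the Injured 4 hr arrays, and its Uninjured mean was -1.54. The CKIN values thus lay between fresh cord and the PBS cultures. Cxcl1 fell by 2.26 ± 0.59 (limma adjusted p = 0.0149). Ccl4, which attracts monocytes, read -0.37, -0.40 and -1.68 against 1.40, 1.66 and 1.37 and fell by 2.30 ± 0.63 (limma adjusted p = 0.0186). Cxcl2 read 0.49, -1.01 and -0.17 against 1.70, 1.78 and 1.22 and fell by 1.80 ± 0.55 (limma adjusted p = 0.0283). No CKIN array of any of the 3 reached the lowest Injured array. Under common centring Cxcl1 and Ccl4 passed (-1.75 and -1.72, adjusted p = 0.0395 and 0.0399) and Cxcl2 did not (-1.22, adjusted p = 0.0744). Under the fresh-cord curve Cxcl1 and Ccl4 passed (-2.28 and -2.19, adjusted p = 0.0284 and 0.0404) and Cxcl2 did not (-1.71, adjusted p = 0.0679). Under the culture curve none of the 3 passed (-1.34, -1.14 and -0.58, adjusted p = 0.182, 0.192 and 0.475).

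Single arrays decided some of these calls. Cxcl1 lost its call without Injured 4 hr replicate 2 (-2.02). Ccl4 lost it without any 1 Injured array (-2.33, -2.20 and -2.35) and without CKIN replicate 3 (-1.87). Cxcl2 lost it without any 1 Injured array (-1.73, -1.69 and -1.97) and without CKIN replicate 2 or 3 (-1.41 and -1.83). The adjusted p without 1 array lay between 0.0506 and 0.0899 in all of these.

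The other 2 of the 5 cytokine and chemokine genes that fell were Il1b, described above, and Mif. Mif, a cytokine that restrains macrophage migration, read 0.96, 0.95 and 0.43 in CKIN and 2.30, 2.48 and 2.32 in Injured 4 hr, without overlap, and fell by 1.59 ± 0.45 (limma adjusted p = 0.0206). It did not pass under common centring (-1.01, adjusted p = 0.0555), the fresh-cord curve (-0.32) or the culture curve, where the sign turned (0.37), nor with array set as a block (-0.28), against the PBS pool (0.78) or without any 1 Injured array (-1.62, -1.53 and -1.61) or CKIN replicate 3 (-1.41). The panel genes Cxcl10, Il6 and Ccl2 did not pass. Cxcl10, which interferon induces, read 0.71 and 1.21 against 0.78, 0.73 and 1.33, which overlap (0.02 ± 0.37, limma adjusted p = 0.983). Il6, a cytokine that interleukin 1 induces in many cells, differed by 0.19 ± 0.54 (adjusted p = 0.849). Ccl2, which attracts monocytes, did not pass on either probe (-0.57 ± 0.49 and -0.80 ± 0.40). Of all 32 tested cytokine and chemokine genes 5 fell (15.6%) and 0 rose in centred ratios (median -0.49), 3 and 3 under common centring (median 0.09), 3 and 0 under the fresh-cord curve and 0 and 1 under the culture curve.

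Within NF-kB components and targets, 6 of 21 tested genes fell (28.6%, beside 18.0% of all tested genes) and 0 rose. The median of -0.36 equalled that of all tested genes. Nfkbia read -0.42, -0.51 and -0.62 in CKIN and 1.18, 1.20 and 1.26 in Injured 4 hr, and its Uninjured mean was -0.66. The arrays within each group agreed closely, and in centred ratios CKIN stood near fresh cord. That nearness depends on the centring. Common centring lowers every value by 1.56 to 1.61 on the Uninjured arrays, and moves CKIN values by far less (centre shifts of -0.03 to 0.21). Fresh cord then lies well below CKIN. Nfkbia fell by 1.73 ± 0.47 (limma adjusted p = 0.0175). Nfkb1, the p105 and p50 subunit, read -0.87, -0.02 and -0.58 against 1.74, 1.22 and 0.55 and fell by 1.66 ± 0.40 (limma adjusted p = 0.00935). Cebpb, a transcription factor that works beside NF-kB on cytokine promoters, read -2.11 and -1.06 against 1.48, 0.83 and 1.18. Both CKIN arrays were far below the controls, a fall of 2.75 ± 0.49 (limma adjusted p = 0.00292). Against the PBS pool Cebpb passed (-1.59, limma adjusted p = 0.006), and Nfkbia and Nfkb1 did not (-0.52 and -0.49, limma adjusted p = 0.347 and 0.28). B2m, the light chain of class I antigen presentation, fell by 2.05 ± 0.54 (limma adjusted p = 0.0149) and stood at 0.12 against the PBS pool, while Icam1, an adhesion molecule, differed by -0.36 ± 0.36 and did not pass. Under common centring 4 of the 21 fell and 1 rose (median 0.21), under the fresh-cord curve 3 fell, and under the culture curve 0 passed. Leaving out 1 array ended the call of Nfkbia without each Injured array (-1.75, -1.74 and -1.71), of Nfkb1 without Injured 4 hr replicate 1 (-1.38), and of B2m without Injured 4 hr replicate 3 (-2.08) or CKIN replicate 3 (-1.71). Vcam1, Nos2, Ptgs2 and Socs3 had too few CKIN values to test.

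Prostaglandin E2 is made from arachidonic acid by cyclooxygenase and then by Ptges, an enzyme that interleukin 1 induces in many cell types, and is broken down by Hpgd. Ptges read -1.94, -2.71 and -1.82 in CKIN and -0.36, 0.23 and -0.28 in Injured 4 hr. All CKIN arrays were below the controls, and Ptges fell by 2.02 ± 0.47 (limma adjusted p = 0.00808). It held under the fresh-cord curve (-2.07, adjusted p = 0.0185), the culture curve (-1.97, adjusted p = 0.0334) and with any 1 array left out, and did not pass under common centring (-1.44, adjusted p = 0.0813). Its means in MP and Acet were -2.42 and -2.75. Hpgd read 0.73 and 0.69 against -1.44, -0.89 and -0.14 and rose by 1.53 ± 0.51 (limma adjusted p = 0.041). That call ended under the culture curve (0.90, adjusted p = 0.376) and the fresh-cord curve (1.49, adjusted p = 0.0821), and without Injured 4 hr replicate 1 or 2 (1.22 and 1.497). It also ended without CKIN replicate 3, which held no value for Hpgd, so the difference stayed at 1.53 and only its adjusted p moved. Of the 17 tested prostanoid genes no other passed in centred ratios, and the median was -0.07, and 0.56 under common centring.

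Of 24 early response genes 5 fell (20.8%, beside 18.0% of all tested genes) and 0 rose (median -0.51). Under common centring 1 fell and 1 rose (median 0.04), under the fresh-cord curve 2 fell, and under the culture curve 0 passed. Junb, a subunit of the AP-1 transcription factor, read -1.28, -0.91 and -1.05 against 0.91, 0.73 and 0.74, tight groups far apart, and fell by 1.87 ± 0.40 (limma adjusted p = 0.00599). Of 25 heat shock genes and chaperones 11 fell (44.0%) and 0 rose (median -1.11), 4 fell under common centring and 4 under the fresh-cord curve, and 0 passed under the culture curve. The inducible chaperones were read by 3 probes, whose near-identical transcripts cannot be told apart. Hspa1a read -0.33, -0.86 and -0.96 against 1.37, 1.73 and 1.55 on 1 probe and fell by 2.26 ± 0.46 (limma adjusted p = 0.00534). It fell by 1.95 ± 0.48 on the other, a call lost without Injured 4 hr replicate 1 (-1.67), and Hspa1b fell by 2.16 ± 0.45 (adjusted p = 0.00559). Hmox1, the inducible haem oxygenase, read -0.42, -1.38 and 0.07 against 1.95, 2.33 and 1.58 and fell by 2.53 ± 0.57 (limma adjusted p = 0.00709). Under the fresh-cord curve all 5 of these probes passed (-2.50 to -1.87), and under the culture curve none did (-1.21 to -0.55). Against the PBS pool Junb passed (-1.08, limma adjusted p = 0.0122), and Hspa1a (-0.71 and -0.96), Hspa1b (-0.22) and Hmox1 (-0.58) did not. Fresh-cord means were -2.05 and -1.44 for Hspa1a and -1.38 for Hspa1b, so these probes were high on the Injured 4 hr arrays and low in cord, whereas 358 of the 693 probes that fell lay in the highest bin of fresh-cord ratio.

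Mt1, a metallothionein that binds zinc and copper and that glucocorticoids induce, was read by 3 probes that agreed in centred ratios. On the first Mt1 read 0.40, 0.03 and -0.18 in CKIN and 2.15, 2.14 and 1.71 in Injured 4 hr, and on the second 0.13, -0.35 and -0.34 against 1.73, 2.30 and 1.66. On the third it read 0.20, 0.47 and -0.28 against 1.96, 2.22 and 1.20. No CKIN array reached a control array on any probe. Mt1 fell by 1.92 ± 0.44, 2.08 ± 0.41 and 1.66 ± 0.45 (limma adjusted p = 0.0071, 0.0041 and 0.0168). Means in MP cultures were 1.87, 1.89 and 1.47, close to the PBS cultures, and the CKIN minus MP differences of -1.78, -2.08 and -1.34 had limma adjusted p of 0.0894, 0.0894 and 0.199. The third probe lost its call without Injured 4 hr replicate 1 or 2 (-1.58 and -1.45) or CKIN replicate 3 (-1.46) and under the fresh-cord curve (-1.16, adjusted p = 0.0765). Under the culture curve the 3 probes read -0.50, -0.10 and 0.25, and none passed, the third with its sign turned.

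Of 28 tested genes of matrix and connective tissue, 5 fell (17.9%) and 0 rose (median -0.30), and under common centring 2 fell and 2 rose (median 0.28). Col1a2, a chain of type I collagen, read -1.34, -0.73 and -1.44 against 1.10, 1.37 and 0.90. It fell by 2.29 ± 0.48 (limma adjusted p = 0.00565). Timp1, an inhibitor of matrix proteases that cytokines induce, read -1.84, -1.67 and -1.45 against 0.60, 0.58 and -0.01 and fell by 2.04 ± 0.46 (limma adjusted p = 0.00709). The groups did not overlap for either gene, both calls held under the fresh-cord curve (-1.46 and -2.11, adjusted p = 0.0318 and 0.0168), and neither passed under the culture curve (adjusted p = 0.0611 and 0.197). Acet cultures had means of -1.31 and -1.79 for these genes, near those of CKIN at -1.17 and -1.65.

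Markers of cell types were counted in the same way. Of 17 myelin and oligodendrocyte genes 9 fell (52.9%) and 0 rose, and their median centred ratio was 0.46, 0.41 and -0.06 on the CKIN arrays and 1.93, 1.54 and 2.00 on the Injured 4 hr arrays. The groups of medians did not overlap. Ugt8, which makes the myelin lipid galactosylceramide, fell by 2.67 ± 0.49 (limma adjusted p = 0.00315), and Mobp, a myelin structural protein, by 2.53 ± 0.59 (adjusted p = 0.00784). Both passed under the fresh-cord curve (-1.49 and -1.61, adjusted p = 0.0104 and 0.0407), where the list count was 2 lower and 1 higher, and not under the culture curve (-0.57 and -0.45), where it was 0.

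Of 26 astrocyte genes 8 fell (30.8%), of 49 neuronal genes 11 (22.4%), of 15 microglia and macrophage genes 5 (33.3%) and of 13 endothelial genes 4 (30.8%), beside 18.0% of all tested genes, and 0 rose in each. Of 9 blood and granulocyte genes 0 passed. Under the fresh-cord curve the counts lower and higher were 1 and 3, 1 and 3, 0 and 0, and 1 and 0 for the first 4 of these lists. The neuronal median turned from -0.74 to 0.29 there and to 0.39 under the culture curve, and the astrocyte median from -0.91 to 0.07 under the fresh-cord curve. Penk, the enkephalin precursor of dorsal horn neurons, read -0.76, -0.98 and -0.93 against 1.06, 1.46 and 1.71. It fell by 2.30 ± 0.39 (limma adjusted p = 0.00245) and was the neuronal gene that also passed downward under the fresh-cord curve (-1.30, adjusted p = 0.0217). The part of these marker shifts in the cytokine results was not tested. Microglia markers had medians of 0.35, 0.17 and 0.34 on the CKIN arrays and 0.76, 1.03 and 0.90 on the Injured 4 hr arrays.

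In the list of 68 ribosomal protein names 51 fell (75.0%, beside 18.0% of all tested genes) and 0 rose (median -1.61). That list also holds Rps6ka2 and Rps6kb1, which encode protein kinases and not ribosomal proteins. Rps24 read 0.55, 0.57 and -0.40 against 2.36, 2.69 and 2.65, a fall of 2.32 ± 0.49 (limma adjusted p = 0.00565), and its CKIN mean stood at 0.24 against the PBS pool. The count was 16 lower and 2 higher under common centring (median -1.03), 4 and 0 under the fresh-cord curve (median -0.66) and 0 and 0 under the culture curve (median -0.09). In oxidative phosphorylation 13 of 30 genes fell (43.3%), in the proteasome and ubiquitin list 10 of 34 (29.4%) and in glycolysis 10 of 28 (35.7%). In antioxidant defence 9 of 28 fell (32.1%) and in cholesterol synthesis 4 of 10 (40.0%). In each of these lists 0 were higher, and the share of all tested genes that fell was 18.0%. Under the culture curve 0 genes of these lists passed in either direction. Gapdh, averaged over its spots, read 0.88, 1.19 and 0.71 against 2.15, 2.17 and 2.15, groups that did not overlap, and differed by -1.23 ± 0.47 (limma adjusted p = 0.0654). Its sign turned under both curves (0.33 and 0.24).

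Receptor and channel genes, whose ratios lay near the array centre in both groups, shifted little in centred ratios and upward under common centring. The centred medians were -0.01 for 31 glutamate, GABA and glycine receptor genes, -0.06 for 72 voltage-gated and potassium channel genes and -0.05 for 47 receptors for amines, acetylcholine, histamine and purines, and 0.55, 0.55 and 0.53 under common centring. Of these lists 5, 6 and 5 genes fell (16.1%, 8.33% and 10.6%, beside 18.0% of all tested genes) and 1, 2 and 2 rose. Kcnj3, a subunit of the G protein-gated potassium channel, read 0.86 and 1.08 on 2 CKIN arrays and -0.63, -0.60 and -0.74 on the controls. The groups were far apart, and it rose by 1.62 ± 0.39 (limma adjusted p = 0.0129), under the fresh-cord curve by 1.65 (adjusted p = 0.0197), and did not pass under the culture curve (1.22, adjusted p = 0.118).

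**Figure D3:**
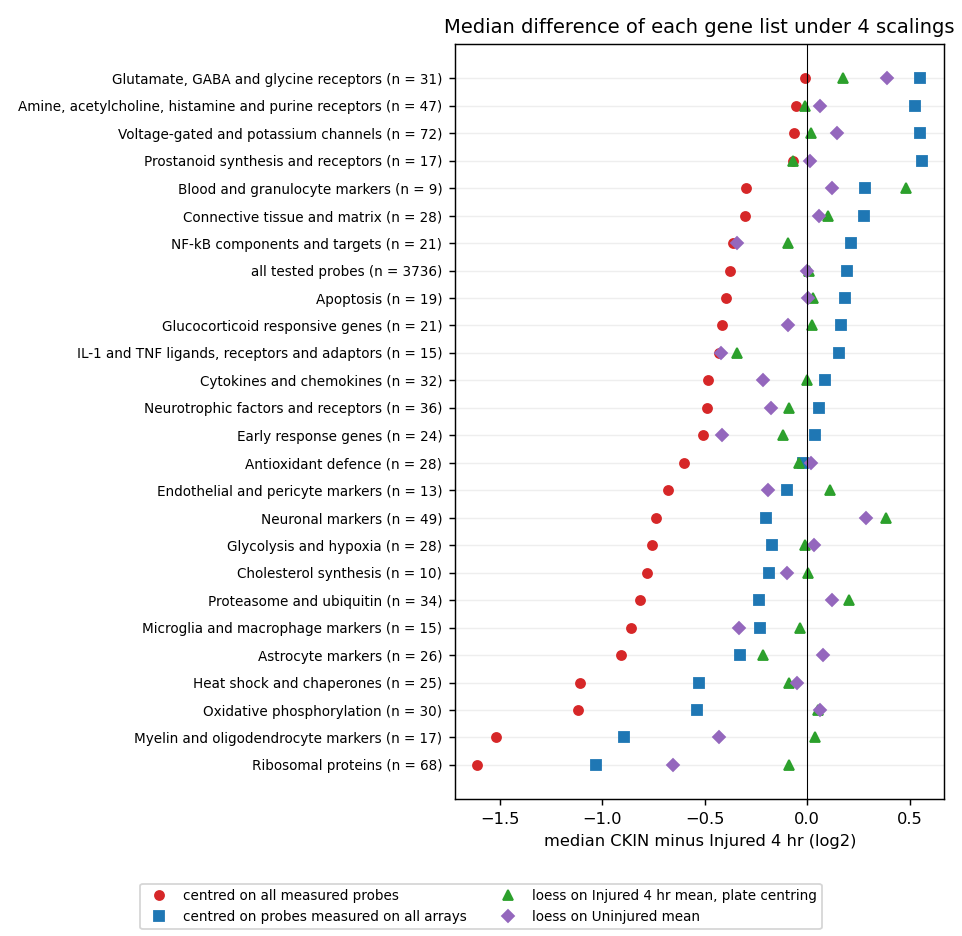
Median CKIN minus Injured 4 hr difference in log2 ratio (horizontal axis) of each gene list, with n the number of tested genes (tested probes in the row of all probes), under 4 scalings drawn as different symbols. In centred ratios the ribosomal list lies lowest at -1.61 and the receptor and channel lists near 0, and under the culture curve (triangles) the ribosomal median is -0.09.

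Set against the other treatments, CKIN cultures differed at few probes. These comparisons share the CKIN arrays with the one above, and values of all 3 treatments against Injured 4 hr share those controls, so group means are given side by side without a count of genes in common. Against MP, 0 of 3633 probes passed limma (0%), with 552 at an unadjusted p under 0.05. Under common centring 20 passed (0.551%), 19 of them higher in CKIN, under the fresh-cord curve 2 (0.0554%) and under the culture curve 0. Clcn5 was among the probes nearest to passing, with -2.14 and -2.72 on the CKIN arrays and a mean of 0.09 in MP (-2.52 ± 0.47, adjusted p = 0.0894).

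Against Acet, 6 of 3750 probes passed (0.16%), 5 lower and 1 higher in CKIN, and these probes are described in the closing section. Under common centring 105 passed (2.8%), 95 of them higher, under the fresh-cord curve 12 (0.322%) and under the culture curve 17 (0.456%). For the inflammatory genes the means differed in order between treatments. Cxcl1 had means of -0.94 in CKIN, 0.69 in MP and 0.07 in Acet, and Ccl4 -0.82, -0.13 and 1.91. The Ccl4 mean with Acet lay beside 1.48 in the PBS cultures, and CKIN minus Acet was -2.73 ± 0.63 (limma adjusted p = 0.0647). Junb had -1.08, -0.57 and 0.63 (CKIN minus Acet -1.70 ± 0.40, adjusted p = 0.0647). Cebpb had -1.59, 0.31 and 0.09, lowest in CKIN, and CKIN minus MP was -1.90 ± 0.49 (limma adjusted p = 0.0962). None of these differences passed, which does not show that the treatments act alike.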

How the data were processed

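Expression ratios of rat spinal cord were measured on 21 2-colour arrays, 3 in each of 7 groups, each against a culture RNA pool. By the titles the reference was of ETOH cultures for indomethacin, DMSO cultures for NS398 and PBS cultures for the rest. The values are log2 ratios deposited by the authors. Their base was inferred from recurring logarithms of integer ratios. Not given in the sources used here are dyes, scanner, background correction and normalization. Spots of 1 probe were averaged (Gapdh, 52 spots), blank spots were taken as missing, and other probes were not merged. Symbols are those of the platform annotation, updated by gene identifier for 4375 of 4423 probes. Of 4911 measured probes 547 had no symbol and were not named.

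Each array was centred on its probe median, and a linear model with a mean for each group was fitted to all 21 arrays (limma 3.58.1, R 4.3.3; moderated statistics, Benjamini-Hochberg over all tested probes, two-sided adjusted p under 0.05). A probe was tested with at least 2 values in each group. There were 3 comparisons. Alternatives were other centring, quantile and scale normalization, loess curves of span 0.4, array set or replicate number as a block, complete values, only the compared groups, the PBS pool as control, and leaving out each array. Loess on the Injured 4 hr mean was followed by centring on plates with at least 20 probes. The p-values cover the spread among these arrays alone, which may be technical, since the labels do not say whether replicates were separate cultures. The number of arrays limits the precision.

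The members, the 25 gene lists and the rule for named genes were chosen with earlier results of these data known. The lists overlap in a few genes, and each gene entered once, through its probe with most values. Named were the 10 largest passing rises and falls without overlap, probes that also passed under the culture curve, a panel of inflammatory genes and up to 4 passing probes per list. In simulated data with independent noise, 64% of log2 changes of 2 and 11% of changes of 1 were recovered in the CKIN minus Injured 4 hr comparison of 3736 probes, with 6 false calls. The spread of each probe was its average over the 7 groups. The simulation held no slope with the fresh-cord ratio, no difference of array sets and no wider CKIN spread, so these shares need not hold for the real arrays. Replicate numbers did not pair the arrays. Deviations of same-numbered CKIN and Injured 4 hr arrays correlated at 0.06, -0.05 and -0.01.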

Additional observations from a re-analysis of the deposited data

Results flagged for a closer look

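The difference between CKIN and Acet cultures passed limma at 6 probes, and each is given with its values. Tmeff1, a transmembrane protein of brain, read -1.59, -1.74 and -0.37 in CKIN and 0.50, 1.11 and 1.01 in Acet (-2.11 ± 0.39, adjusted p = 0.0323). Its Injured 4 hr values of 0.68, 0.89 and 0.44 lay with those of Acet. The call held under common centring and both loess curves, and ended with array set as a block (-1.64, limma adjusted p = 0.0784). Pcyt1a, the enzyme of phosphatidylcholine synthesis, read 1.34 and 2.20 in CKIN and -0.44, -1.12 and -0.98 in Acet (2.61 ± 0.40, limma adjusted p = 0.0141). It also passed under common centring, both curves and with array set as a block, on 2 CKIN arrays.

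Zeb1, a zinc finger repressor, read -0.27, 0.10 and -0.09 in CKIN and 1.46, 1.20 and 1.69 in Acet (-1.54 ± 0.32, limma adjusted p = 0.0498). It passed with array set as a block and not under common centring or either curve. Against Injured 4 hr Zeb1 fell by 1.92 ± 0.32 (limma adjusted p = 0.0021) and passed with array set as a block (-2.13, adjusted p = 0.0316). That call also held under common centring (-1.34, adjusted p = 0.0308) and under neither curve. Idi1, an enzyme of cholesterol synthesis, read -0.61, -1.44 and 0.06 against 0.65, 1.88 and 1.70 (-2.07 ± 0.43, adjusted p = 0.0498). Probe 22E04, which has no gene name, read 0.20, -0.75 and -0.77 against 1.07, 1.59 and 1.36 (-1.78 ± 0.35, adjusted p = 0.0498). Both passed under common centring and under neither curve, nor with array set as a block (-1.5 and -1.58, limma adjusted p = 0.139 and 0.0784). Guca2b, the gut peptide uroguanylin, read -2.09 and -1.43 in CKIN and 1.32, 0.34 and 3.00 in Acet (-3.31 ± 0.65, limma adjusted p = 0.0498) and had no value on any Injured 4 hr array. It passed under common centring (-2.82, adjusted p = 0.0475) and not under the fresh-cord curve (-2.48, adjusted p = 0.219) or with array set as a block (-3.16, adjusted p = 0.0837), and it could not be tested under the culture curve. With a replicate block Guca2b and Zeb1 lost their call (limma adjusted p = 0.0625 and 0.0549).

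No call held without CKIN replicate 2, where Pcyt1a had too few values, and all 6 ended without Acet replicate 3, in deposited ratios and in a fit of the 2 groups alone, where 0 probes passed.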

How the results depend on the processing

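The number of probes that passed for CKIN minus Injured 4 hr was 748, and it was 2232 in deposited ratios, 1228 after scale normalization, 415 under common centring, 190 under the fresh-cord curve, 28 under the culture curve and 6 with array set as a block. With 1 array left out it ran from 205 to 548. For CKIN minus MP it was 0, and 20 under common centring, 8 after quantile normalization, 2 each after scale normalization, under the fresh-cord curve and with array set as a block, and 0 to 8 with 1 array left out. For CKIN minus Acet it was 6, and 0 with only the 2 groups, 2 in deposited ratios, 105 under common centring, 102 after quantile normalization, 20 after scale normalization, 17 and 12 under the culture and fresh-cord curves, 20 with complete values and 0 to 28 with 1 array left out. Quantile normalization gave 618 for CKIN minus Injured 4 hr, 25.2% of them higher. Testing the CKIN arrays against the PBS pool gave 522 (139 higher).

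The replicate numbers share only a number. With a replicate block, 784, 0 and 6 probes passed in the 3 comparisons, and all 44 named probes that had passed for CKIN minus Injured 4 hr kept their call. For CKIN minus Acet 4 of the 6 probes were the same, and Guca2b and Zeb1 lost their call.

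Those 44 probes do not include Zeb1. Of the 44 probes 7 kept the call in deposited ratios, 25 against the PBS pool, 39 under common centring, 43 after quantile normalization, 38 under the fresh-cord curve, 16 under the culture curve and 2 with array set as a block. The sign turned against the PBS pool for B2m (0.12), Rps24 (0.24), Mif (0.78) and Mt1 (0.083 and 0.13), and under the culture curve for Mif (0.37) and 1 Mt1 probe (0.25). In deposited ratios it turned for Cxcl2 (0.13), Junb (0.055), Nfkb1 (0.26), Nfkbia (0.19), Timm9 (0.071), Mif (0.34) and Mt1 (0.0073 and 0.26). Outside the 44, Ccl2 (1.36 and 1.13) and Icam1 (1.57), which had not passed in centred ratios, also turned there. These passed upward (limma adjusted p = 0.0377, 0.0223 and 0.00469). Another 28 sign changes were of values that passed in neither setting. The cause of these changes was not tested. The 1175 measured probes without enough values were not tested, and those with low ratios on the Injured 4 hr arrays are over-represented among them.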

Other observations

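Genes read by more than 1 probe allowed a look at how far probes agree. The CKIN minus Injured 4 hr differences of 2 probes of a gene, over 123 such genes, correlated at r = 0.38 in centred ratios, with the same sign in 89 genes (72.4%). Under the culture curve r was 0.14, with the same sign in 69 (56.1%), and under the fresh-cord curve 0.28, with 70 (56.9%). These are correlations across genes that share arrays, given as a description.

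Blank spots were not spread evenly. Of probes with at least 2 Injured 4 hr values, 360 had no value on any CKIN array and 769 had 1, with median centred ratios of -0.30 and -0.26 on the Injured 4 hr arrays. The 1221 probes with 2 values had -0.16 and the 2515 with all 3 had 0.38. Ptgs2, which encodes cyclooxygenase 2, was among those with 1 CKIN value, at -0.05, beside 1.16, 1.26 and 0.85 on the Injured 4 hr arrays, and Socs3, a brake on cytokine signalling, had none, beside 0.39, 0.55 and 0.06.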
